A study of Mus musculus with 36 samples.

Results

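The Nodal and Lefty signalling genes are the ligand Nodal, its secreted antagonists Lefty1 and Lefty2, the co-receptor Tdgf1, the transducers Smad2 and Smad3, and the inhibitors Smad7, Skil and Tgif2, 9 of the 22367 protein-coding genes of the mouse annotation. They were chosen by name, with earlier results of these data known, and each was described by the ChIP-seq peaks with a midpoint within 50 kb of its gene body (mouse genome build mm9, GENCODE vM1 gene models). Across 9 peak lists, 269 peaks met this rule, between 6 and 73 per list, of 2304 to 29974 peaks in a whole list. Peaks lying in the windows of both Lefty genes were counted once in these totals.

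Wild-type R1 mouse embryonic stem cells (ESCs), kept in serum and LIF with the 2i inhibitors, gave 2 lists each for MBD3, CHD4 and SIN3A. Neural progenitor cells (NPCs) derived from wild-type R1 ESCs and kept in NPC medium gave 1 list each for MBD3 and CHD4. A GFP antibody gave 1 list for ZFP296 in an ESC line labelled as carrying a ZFP296-BAC in R1 cells, whereas the methods describe a GFP-tagged construct in KH2 ESCs. The other 27 samples of the series, Zfp296 knockout cells included, were not analysed here. MBD3 and CHD4 are subunits of the nucleosome remodelling and deacetylase complex NuRD, SIN3A is the scaffold of a separate histone deacetylase complex, and ZFP296 is a zinc finger protein of ESCs. The 2 SIN3A lists came from 1 sample with and 1 without spike-in chromatin, so preparation and replicate cannot be told apart. All peak names of the second ESC CHD4 list refer to a Zfp219 BAC, although its label says wild type, so counts are given for each CHD4 list separately. A site means a peak found in both lists of a factor, overlapping by at least 1 bp. With 1 or 2 lists per condition there is no test between conditions, so counts are set beside the share of all protein-coding genes that meet the same rule, and the differences between ESCs and NPCs have no replicate check on the NPC side.

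Nodal is a secreted ligand of the TGF-beta family that signals through activin receptors and the co-receptor Tdgf1 (Cripto) to phosphorylate Smad2 and Smad3, which act on DNA with Smad4 and partners such as FOXH1. Lefty1 and Lefty2 antagonise Nodal outside the cell, Smad7 blocks the receptors from within, and Skil and Tgif2 are co-repressors that bind Smad complexes. In the early embryo the pathway acts in epiblast, germ layer formation and left-right asymmetry, and Nodal and Lefty genes are themselves induced by it, through enhancers that hold FOXH1 binding sequences.

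The windows below carry the peaks on which the description turns. Each is the central 200 bp of a peak, read from the plus strand of mm9, 5′ to 3′, with matches in capitals to strings searched on both strands: AATNCACA (FOXH1), CAGAC (SMAD), TGANTCA (AP-1), ATGCAAAT (octamer), CCATTGT (SOX) and TTAGGG (telomere unit). A match is a run of letters, not a shown binding site. Nodal, Lefty1, Lefty2 and Skil are on the plus strand, Tdgf1 and Smad3 on the minus strand. The first pair of Nodal windows lie upstream of the gene, the first under the ESC MBD3 site and the second under the CHD4 peak of highest value. The last of Nodal lies in a Nodal intron under both SIN3A lists and the second CHD4 list. For the Lefty genes, the window upstream of Lefty2 holds SIN3A in both lists, that upstream of Lefty1 holds MBD3 and CHD4 of ESCs, and that between the genes holds both NPC factors. For Tdgf1 the window is upstream, under the highest SIN3A peak. The Smad3 windows are intronic, 1 bound in ESCs and 1 in NPCs, and the Skil window, in an intron close to the start, was bound in both cell types. The windows with the FOXH1 string and the NPC windows were added after the values were seen.
Nodal 1.98 kb upstream, chr10:60878639-60878838: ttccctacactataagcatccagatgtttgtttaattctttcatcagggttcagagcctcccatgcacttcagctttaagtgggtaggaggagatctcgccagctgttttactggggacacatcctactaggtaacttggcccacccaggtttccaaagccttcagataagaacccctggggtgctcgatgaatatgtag
Nodal 1.41 kb upstream, chr10:60879215-60879414: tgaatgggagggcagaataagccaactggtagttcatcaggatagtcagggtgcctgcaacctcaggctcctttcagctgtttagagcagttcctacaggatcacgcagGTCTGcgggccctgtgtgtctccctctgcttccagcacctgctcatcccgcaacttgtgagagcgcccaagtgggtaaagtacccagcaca
Nodal intron 1.42 kb downstream of the start, chr10:60882040-60882239: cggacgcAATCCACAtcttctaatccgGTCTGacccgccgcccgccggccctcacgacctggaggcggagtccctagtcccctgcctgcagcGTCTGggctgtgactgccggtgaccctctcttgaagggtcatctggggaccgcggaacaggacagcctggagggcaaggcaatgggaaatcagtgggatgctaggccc
Lefty2 4.21 kb upstream, chr1:182818926-182819125: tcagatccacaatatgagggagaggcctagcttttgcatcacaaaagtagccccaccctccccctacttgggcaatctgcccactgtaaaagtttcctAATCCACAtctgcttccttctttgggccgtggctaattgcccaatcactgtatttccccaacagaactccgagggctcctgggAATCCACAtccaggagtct
Lefty1 1.18 kb upstream, chr1:182863878-182864077: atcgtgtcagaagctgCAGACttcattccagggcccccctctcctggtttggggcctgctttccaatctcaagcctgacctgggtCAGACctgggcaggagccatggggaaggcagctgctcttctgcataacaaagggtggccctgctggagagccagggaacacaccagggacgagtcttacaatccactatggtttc
Between Lefty2 and Lefty1, 20.9 kb downstream of the Lefty2 start, chr1:182844052-182844251: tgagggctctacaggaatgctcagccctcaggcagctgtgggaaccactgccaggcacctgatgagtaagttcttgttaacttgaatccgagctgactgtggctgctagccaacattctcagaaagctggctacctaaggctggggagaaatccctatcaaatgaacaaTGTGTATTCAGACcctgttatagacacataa
Tdgf1 1.23 kb upstream, chr9:110849795-110849994: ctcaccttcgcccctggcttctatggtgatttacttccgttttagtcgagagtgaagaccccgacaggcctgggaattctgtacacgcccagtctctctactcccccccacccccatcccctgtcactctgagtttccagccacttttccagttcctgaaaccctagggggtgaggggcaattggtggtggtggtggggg
Smad3 intron 16.0 kb downstream of the start, ESC, chr9:63589722-63589921: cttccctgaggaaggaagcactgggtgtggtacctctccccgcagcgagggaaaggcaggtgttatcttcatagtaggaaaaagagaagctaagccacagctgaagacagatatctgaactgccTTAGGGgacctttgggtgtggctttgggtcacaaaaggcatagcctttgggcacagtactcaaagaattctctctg
Smad3 intron 51.4 kb downstream of the start, NPC, chr9:63554266-63554465: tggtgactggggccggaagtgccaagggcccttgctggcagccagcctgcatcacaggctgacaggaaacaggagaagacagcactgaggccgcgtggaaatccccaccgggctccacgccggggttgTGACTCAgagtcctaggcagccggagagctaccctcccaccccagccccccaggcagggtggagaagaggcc
Skil intron 0.39 kb downstream of the start, chr3:30994269-30994468: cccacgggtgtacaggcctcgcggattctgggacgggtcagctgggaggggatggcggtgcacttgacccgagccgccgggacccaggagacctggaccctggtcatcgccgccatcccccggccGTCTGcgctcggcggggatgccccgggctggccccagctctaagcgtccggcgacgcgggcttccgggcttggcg

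In ESCs, 3 of the 9 genes had an MBD3 site within 50 kb (Nodal, Tdgf1 and Smad7), beside 10.1% of all protein-coding genes. MBD3 peaks of the first list lay near those same 3 genes (15.8% of all genes), and peaks of the second list also lay near Lefty1, Lefty2 and Smad3, 6 genes in all (33.1%). CHD4 sites lay near 7 of the 9 genes, all but Smad2 and Tgif2 (36.8% of all genes), while each CHD4 list on its own reached all 9 (43.0% and 67.7%). SIN3A sites lay near all 9 genes, beside 53.5% of all genes, and each SIN3A list also reached all 9 (65.1% without and 59.2% with spike-in). The only SIN3A site of Lefty1 lay 46.1 kb upstream of its start and was also counted for Lefty2, 4.21 kb upstream. At 20 kb, or counting only peaks nearest to a gene's own start, 8 genes had a SIN3A site and Lefty1 was lost. GFP-ZFP296 peaks lay near 6 genes, all but Smad2, Skil and Tgif2, beside 21.9% of all genes. In NPCs, MBD3 peaks lay near 5 genes (Lefty1, Lefty2, Smad3, Smad7 and Tgif2), beside 15.7%, and CHD4 peaks near 7, all but Tdgf1 and Smad2, beside 57.9%. The 2 Lefty genes share most of their window and are not independent entries in these counts. The median window of the 9 genes was 115.494 kb long, close to the 115.427 kb of all genes, but Smad3 had the longest, 211 kb, and Lefty1 the shortest, 103 kb.

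**Figure D1:**
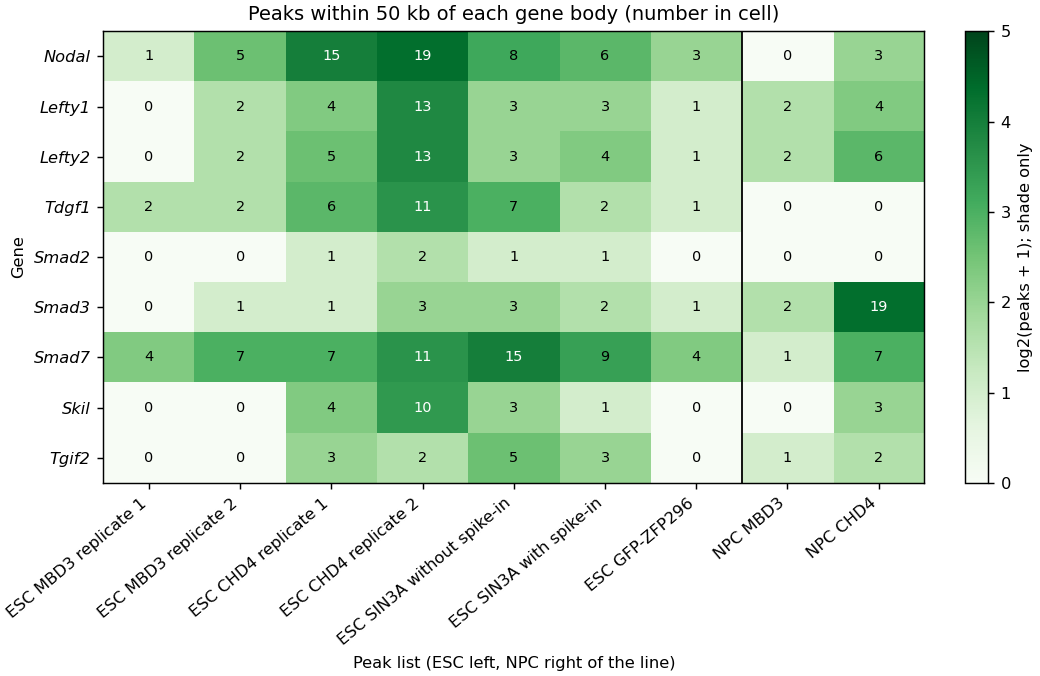
Number of peaks of each list (columns) within 50 kb of each gene body (rows), with the shade following log2(peaks + 1). Nodal carried 15 and 19 ESC CHD4 peaks against 3 in NPCs, Tdgf1 6 and 11 against 0, and Smad3 1 and 3 against 19.

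Nodal, the ligand (chr10:60880720-60888086), was among the genes with the most ESC CHD4 peaks. It had 15 peaks in the first CHD4 list and 19 in the second, where the mean over all genes was 1.34 and 3.33. Only 0.501% and 1.29% of protein-coding genes had as many, and 11 peaks were sites, a number reached by 0.478% of genes. By contrast, the NPC CHD4 list held 3 peaks near Nodal, a count reached by 25.9% of genes, and the NPC MBD3 list held 0. SIN3A had 8 peaks near Nodal without and 6 with spike-in, and GFP-ZFP296 had 3.

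The peaks concentrated upstream of the Nodal start. In each CHD4 list 13 peaks lay upstream, 6 of the first and 5 of the second within 3.31 kb of the start, where the widest were 745 bp and 1373 bp long. A merged region of 1397 bp, centred 1.74 kb upstream, held peaks of all 7 ESC lists and of neither NPC list. Within it, the MBD3 peak lay 1.98 kb upstream in the first list, with a value of 12.8 (−log10 of the caller's p or q value), higher than or equal to 84.7% of that list. The second list placed it 1.99 kb upstream with a value of 12.7. SIN3A peaks there had values of 10.4 and 12.7, and the GFP-ZFP296 peak a value of 11.6 (percentile 76.9). These values rank a peak within its own list and are not comparable between lists.

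A second cluster lay 34.4 to 36.05 kb upstream of Nodal, nearer to the start of X99384 than to that of Nodal. One merged region there, centred 35.7 kb upstream, held 6 lists (MBD3 of the second list, both CHD4, both SIN3A and GFP-ZFP296). Its neighbour, centred 34.5 kb upstream, held 6 lists as well, the NPC CHD4 list among them with a value of 5.35, near the bottom of that list (percentile 8.59). The first MBD3 list had no peak at either region.

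Inside Nodal, both SIN3A lists and the second CHD4 list had a peak 1.39 to 1.42 kb downstream of the start. The SIN3A peak without spike-in had a value of 27.2 (percentile 93.9), while that with spike-in had a value of 3.78 (percentile 2.19). The printed window under it holds the FOXH1 string 1 time. That string was present in the central 200 bp of 1.29% of all SIN3A peaks without and 0.824% of those with spike-in. An intronic enhancer of Nodal with FOXH1 sites is known, and whether this peak is that enhancer was not tested.

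The antagonist genes Lefty2 (chr1:182823239-182829234) and Lefty1 (chr1:182865153-182868531) lie side by side, and in ESCs each carried an MBD3 peak near its start in 1 of 2 lists. At Lefty2, the peak in the second MBD3 list lay 0.070 kb upstream with a value of 6.77 (percentile 31.7), with a CHD4 peak of the second list and a GFP-ZFP296 peak at the same place. At Lefty1, it lay 1.13 kb upstream with a value of 17.1 (percentile 93.6), and the second CHD4 list held there one of its highest peaks, 31.2 (percentile 98.9). The first CHD4 list had a peak at the same position with a value of 5.21 (percentile 12.4), and the first MBD3 list had no peak near either gene. A site of MBD3 was therefore found at neither start.

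CHD4 peaks numbered 4 and 13 near Lefty1 and 5 and 13 near Lefty2 in the ESC lists, and 4 and 6 in NPCs. The SIN3A peaks of the Lefty pair did not overlap the ESC MBD3 peaks near the starts. The SIN3A list without spike-in had a peak of 567 bp in a Lefty2 exon, centred 1.48 kb downstream of the start. The list with spike-in had no peak there. Both SIN3A lists had a peak about 4.2 kb upstream of Lefty2, with values of 9.20 without and 11.7 with spike-in. The printed window of the latter holds the FOXH1 string AATNCACA 2 times, both as AATCCACA. An upstream enhancer of Lefty2 with FOXH1 sites is known from work on left-right asymmetry, and whether this peak is that enhancer was not tested. The second CHD4 list had a peak 4.37 kb upstream that overlapped both.

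In NPCs, the Lefty pair carried 2 MBD3 peaks, a count reached by 3.64% of genes, at positions not bound by MBD3 or CHD4 in ESCs. One lay between the genes, 21.0 kb downstream of the Lefty2 start, with a value of 4.37 (percentile 3.08). It was nearer to the start of another gene than to either Lefty start. The other lay 7.34 kb downstream of the Lefty1 start, nearer to Tmem63a, with a value of 8.28 (percentile 44.6). Each overlapped an NPC CHD4 peak.

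Tdgf1, the co-receptor (chr9:110842114-110848662), was bound in ESCs and had 0 NPC peaks of either factor. It carried 2 ESC MBD3 sites, a number reached by 2.60% of genes, and 6 CHD4 sites, reached by 3.37%. The sites lay 1.41 and 6.91 kb upstream, with values of 10.7 and 9.74 in the first list and 5.71 and 5.00 in the second, where both were low (percentiles 17.0 and 10.5). The region centred 1.28 kb upstream held 6 lists, MBD3, CHD4 and SIN3A in both lists of each. The SIN3A peaks there had values of 20.5 and 12.7 (percentiles 85.9 and 79.0) and were the highest of SIN3A near the gene. The only GFP-ZFP296 peak lay 5.36 kb upstream with a value of 8.48, beside 1 CHD4 peak of the second list and away from both MBD3 sites. The site 6.91 kb upstream was nearer to the start of Lrrc2. Counting only peaks nearest to the Tdgf1 start left 3 CHD4 sites, 3 peaks in each CHD4 list and 0 GFP-ZFP296 peaks.

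**Figure D2:**
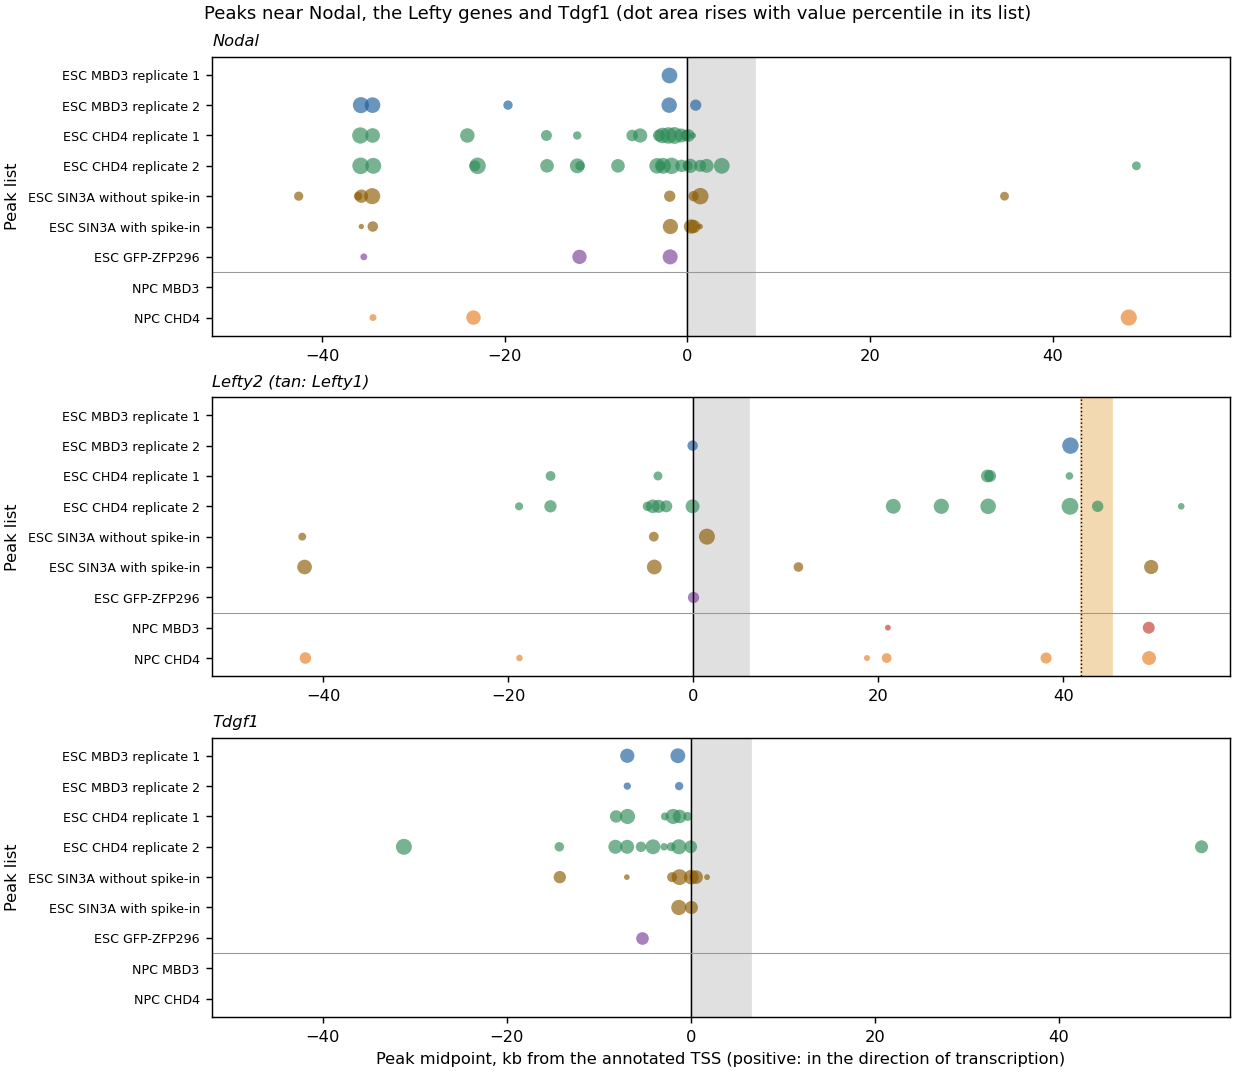
Peak midpoints by distance in kb from the annotated start (x axis) for each list (rows), for Nodal, the Lefty pair and Tdgf1, with the gene body shaded and dot area rising with the value percentile of a peak in its list. ESC CHD4 peaks gather within 3.31 kb upstream of Nodal, the NPC MBD3 peaks of the Lefty pair sit apart from the ESC MBD3 peaks, and the 2 NPC rows of Tdgf1 are empty.

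Smad2 and Smad3, the transducers, were at the 2 ends of the range for CHD4 in NPCs, with 0 and 19 peaks. Smad2 lies on chromosome 18 and Smad3 at chr9:63494574-63605801. Smad2 had 0 MBD3, 0 GFP-ZFP296 and 0 NPC peaks, and only CHD4 peaks found in 1 list each, 7.33 kb upstream in the first and 0.18 and 32.2 kb upstream in the second. Its SIN3A peak, within 1 kb of the start, was found in both lists, with values of 27.0 (percentile 93.7) without and 6.90 (percentile 32.4) with spike-in. Smad3 had 19 NPC CHD4 peaks, a count reached by 19 protein-coding genes (0.0849%). Per 100 kb of window it had 8.995 NPC CHD4 peaks, a density reached by 0.429% of genes, a less extreme rank than that of the count.

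Of the 19 NPC CHD4 peaks of Smad3, 15 were intronic, 2 upstream and 2 downstream. The highest had a value of 21.5 (percentile 95.4), 36.1 kb downstream of the start, and the next 15.9, 13.9 kb downstream. Of the 19, 1 overlapped peaks of ESCs, beside 20.3% of all NPC CHD4 peaks. It lay 3.75 kb upstream and overlapped CHD4 peaks of both lists, the single ESC CHD4 site of the gene. Of the 19, 6 had Aagab rather than Smad3 as the nearest gene start. In ESCs, the CHD4 lists had 1 and 3 peaks.

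Both NPC MBD3 peaks of Smad3 were intronic and overlapped NPC CHD4 peaks. They lay 51.4 kb downstream of the start with a value of 14.3 (percentile 87.5), and 20.3 kb downstream with a value of 11.5 (percentile 75.4). The printed window of the former holds the AP-1 string 1 time. The central 200 bp of 9 of the 19 NPC CHD4 peaks of Smad3 held that string, beside 49.0% of all NPC CHD4 peaks, so the share at Smad3 was near that of the list. In ESC lists the string was in 2.71% to 6.38% of all peaks.

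In ESCs, Smad3 carried a different intronic peak, 16.0 kb downstream of the start, in the second MBD3 list (value 15.9, percentile 91.7), the second CHD4 list (10.4) and the GFP-ZFP296 list (12.6). Neither first list had it. It did not overlap any NPC peak. SIN3A was at the start of Smad3 in both lists, and its highest peaks in the window, 36.3 and 35.9, were about 155 kb downstream, beside the start of Aagab.

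Smad7, the inhibitory Smad on chromosome 18, was the gene with the most MBD3 peaks. The MBD3 lists held 4 and 7 peaks near it, counts reached by 0.756% and 0.680% of genes, and 3 were sites (0.791%). GFP-ZFP296 had 4 peaks (1.17% of genes), and SIN3A 15 without and 9 with spike-in (0.434% and 1.06%).

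The region centred 22.9 kb upstream of Smad7 held all 7 ESC lists. Its GFP-ZFP296 peak, with a value of 24.2 (percentile 97.3), was the highest of that list near any of the 9 genes, and the first CHD4 list had there a peak of 1426 bp with a value of 22.1 (percentile 97.2). The first MBD3 list had 2 peaks there, with values of 9.93 (percentile 69.4) and 4.65 (percentile 6.31), and the second list had 1, with a value of 9.41 (percentile 60.7). A further region 6.59 kb upstream held 6 lists, with an MBD3 value of 12.5 in the first list (percentile 83.7) and 6.58 in the second (percentile 24.6). Another, 12.9 kb downstream in an intron, held 5 lists, among them MBD3 of the second list only.

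SIN3A formed a row of peaks across the start and first few kb of Smad7. Its highest values were 45.9 without spike-in (percentile 98.7), 3.18 kb downstream, and 38.5 with spike-in (percentile 98.6), 0.296 kb upstream. CHD4 overlapped the upstream end of this row in both lists. No MBD3 or GFP-ZFP296 peak did.

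In NPCs, Smad7 had 7 CHD4 peaks and 1 MBD3 peak. The MBD3 peak, 25.1 kb upstream with a value of 7.84 (percentile 39.9), overlapped the highest NPC CHD4 peak of the gene, 21.8 (percentile 95.7). It did not overlap any ESC peak. The nearest ESC MBD3 peak, of the first list, lay 24.3 kb upstream.

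The co-repressor genes Skil (chr3:30993980-31021499) and Tgif2 (chr2:156665813-156681306) had 0 ESC MBD3 and 0 GFP-ZFP296 peaks. Skil had 4 and 10 ESC CHD4 peaks, 3 of them sites (12.1% of genes had as many), and 3 NPC CHD4 peaks. These 3 lay where ESC CHD4 peaks lay, 38.1 and 34.2 kb upstream and 0.24 kb downstream of the start. Those upstream overlapped CHD4 peaks of both ESC lists, and that near the start a peak of the second list only. The region at 34.1 kb upstream had a value of 22.6 (percentile 96.3) in the second ESC CHD4 list, 12.2 in the first and 9.82 in NPCs. The medians of these lists were 8.63, 8.05 and 9.06, and values are not comparable between lists. No other gene of the 9 had all its NPC CHD4 peaks at positions bound by CHD4 in ESCs, but for Skil these were only 3 peaks. Of all NPC CHD4 peaks, 20.3% overlapped a peak of any ESC list. The share overlapping ESC CHD4 peaks alone was not counted, so this has no like background.

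Tgif2 had a broad SIN3A peak over its start in both lists, 1974 bp wide with a value of 19.0 without spike-in and 1508 bp with 18.7 with spike-in. In NPCs an MBD3 peak lay 0.095 kb upstream, at the low value of 4.72 (percentile 5.95), overlapping a CHD4 peak with a value of 7.03 (percentile 29.2). ESC CHD4 peaks were 3 and 2 in number, and none overlapped between the lists.

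**Figure D3:**
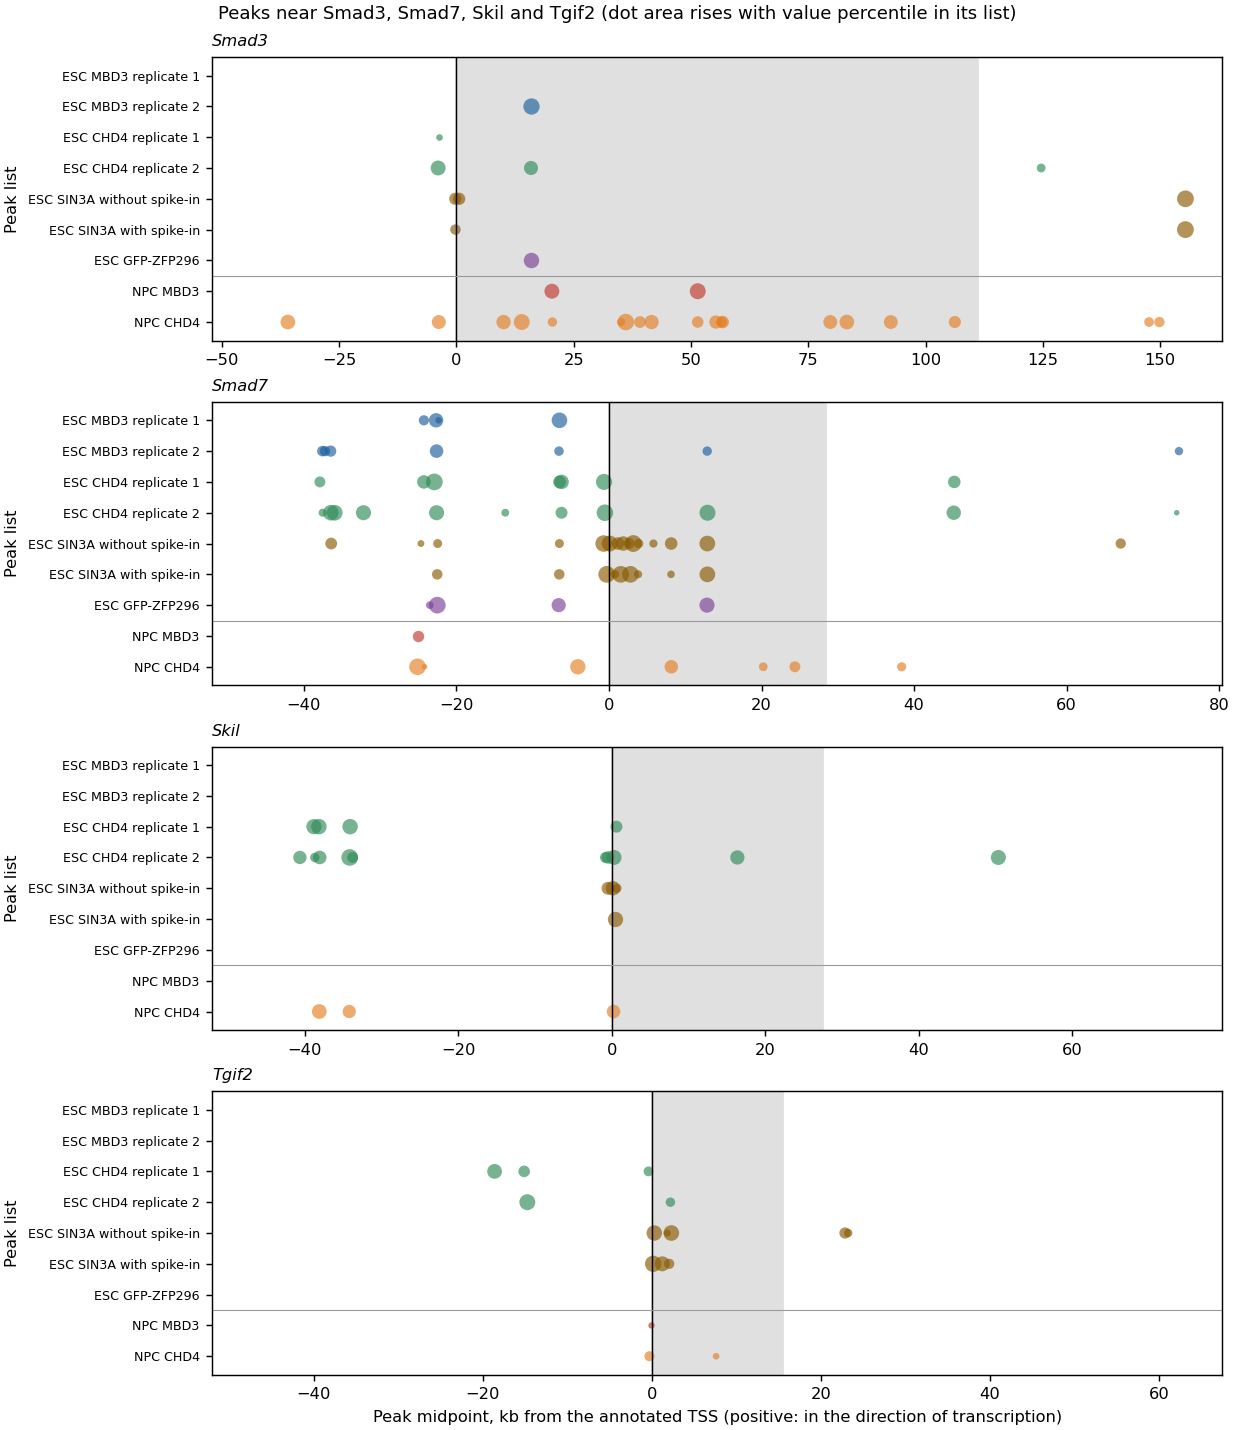
Peak midpoints by distance in kb from the annotated start for Smad3, Smad7, Skil and Tgif2, drawn as for Nodal. The 19 NPC CHD4 peaks of Smad3 spread over its body, Smad7 shows ESC lists stacked 22.9 and 6.59 kb upstream, and the NPC CHD4 peaks of Skil stand under ESC CHD4 peaks.

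Near the starts, the factors differed. Within 1 kb of the annotated start, a SIN3A site was found at 7 of the 9 genes, all but the Lefty pair, beside 26.9% of all genes. CHD4 sites were found there at Nodal, Tdgf1 and Smad7, 3 genes, beside 4.88%, and NPC CHD4 peaks at Skil and Tgif2, 2 genes, beside 11.0%. MBD3 was found within 1 kb of a start only in the second ESC list, at Nodal and Lefty2, and in NPCs at Tgif2. The share of all genes with MBD3 that near the start was not counted, so these have no background.

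CHD4 counts of the 2 cell types set the genes apart. Nodal, with 11 ESC sites and 3 NPC peaks, had an excess in ESCs reached by 0.510% of genes. Tdgf1, with 6 and 0, had an excess reached by 1.18%. Smad3, with 1 and 19, had an excess in NPCs reached by 14 genes (0.0626%). Lefty1 had 4 and 4, Lefty2 5 and 6, Skil 3 and 3, Smad7 4 and 7, Tgif2 0 and 2, and Smad2 0 and 0. The ESC side requires a peak in both lists and the NPC side in 1, and the order of Nodal, Tdgf1 and Smad3 was the same when either ESC list was used alone. With every list cut to the length of the shortest, Nodal had 3 ESC sites and 1 NPC peak, Tdgf1 had 0 and 0, and Smad3 0 and 1. The difference at Tdgf1 was then absent and that at Smad3 was 1 peak. With distance taken from the start instead of the gene body, Smad3 had 1 ESC site and 9 NPC peaks. With only peaks nearest to a gene's own start, Nodal had 9 and 0, Tdgf1 3 and 0, and Smad3 1 and 13.

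**Figure D4:**
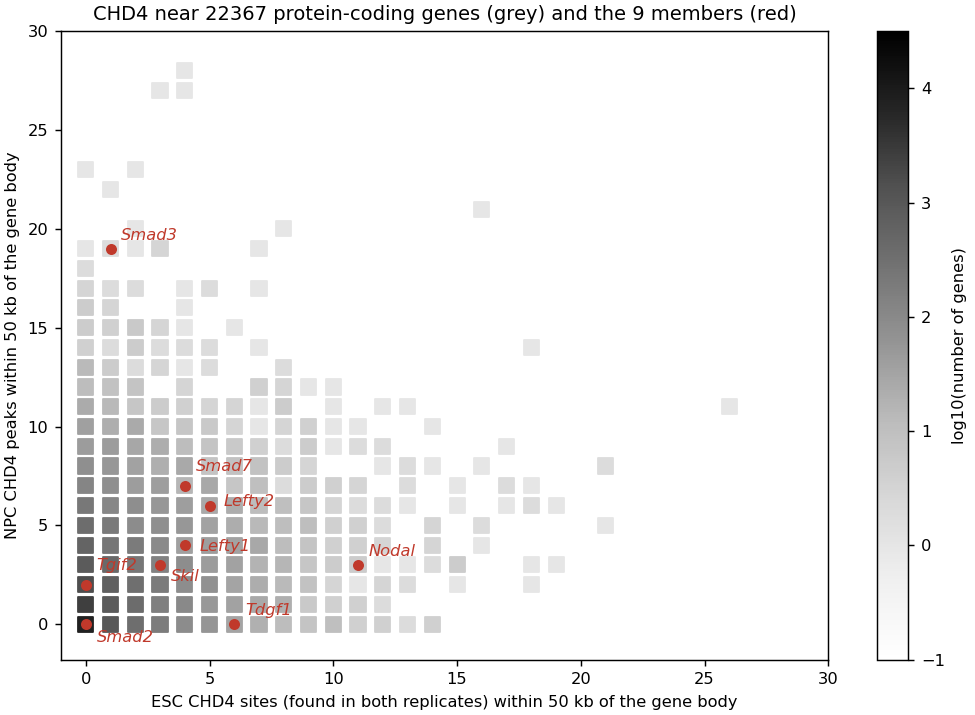
Number of ESC CHD4 sites (x axis) and NPC CHD4 peaks (y axis) within 50 kb of each protein-coding gene, with the grey shade giving the log10 number of genes at each pair of counts and the 9 genes in red. Nodal (11 and 3) and Tdgf1 (6 and 0) lie low on the right, Smad3 (1 and 19) lies high on the left, and 2 genes beyond 30 on an axis are not drawn.

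The 6 ESC MBD3 sites of the 9 genes were set beside the peaks of other factors. A CHD4 site overlapped 5 of the 6, beside 84.5% of all ESC MBD3 sites, so this share was near the background. A SIN3A site overlapped 5, all but the Tdgf1 site 6.91 kb upstream, beside 26.8%. A GFP-ZFP296 peak overlapped 4, those of Nodal and Smad7, beside 42.0%. None of the 6 overlapped an NPC MBD3 or CHD4 peak, beside 8.89% of all ESC MBD3 sites, so 0 of 6 was near the background. The 3 Smad7 sites include 2 within 1 merged region, so they are not 6 separate places. Both of these count in the CHD4, SIN3A and GFP-ZFP296 overlaps.

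All 6 NPC MBD3 peaks near the genes overlapped an NPC CHD4 peak, beside 84.9% of all NPC MBD3 peaks. Of the 6, 1 overlapped an ESC peak, the Tgif2 peak with SIN3A, beside 26.4% of all NPC MBD3 peaks. None overlapped MBD3 or CHD4 of ESCs, beside 19.8%. With 6 peaks, neither count stands apart from the whole list. When all lists were merged, 134 regions lay near the 9 genes, of which 94 (70.1%) held ESC lists alone, 28 (20.9%) NPC lists alone and 12 (8.96%) both. Over the genome these shares were 67.2%, 26.1% and 6.63%, which is close to the shares near the genes. Regions held by 5 or more lists were 11 of 134 (8.21%), beside 3.29% of all regions. Of these, 4 lay near Nodal, 3 near Smad7, 2 near Tdgf1 and 1 each near Skil and Tgif2.

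Strings of bases were counted in the central 200 bp of all member peaks. The SMAD string CAGAC was in 39 of 73 peaks of the second ESC CHD4 list (53.4%, beside 41.8% of the whole list), 21 of 42 of the first (beside 38.7%) and 14 of 40 in NPC CHD4 (35.0%, beside 40.3%). The same string was in 4 of 7 and 9 of 17 ESC MBD3 peaks (beside 36.4% and 41.1%) and 6 of 10 GFP-ZFP296 peaks (beside 40.9%). SIN3A had it in 21 of 46 without and 12 of 28 with spike-in (beside 34.4% and 32.3%). NPC MBD3 had it in 2 of 6 (beside 40.1%). The AP-1 string was in 15 of 40 NPC CHD4 peaks (37.5%, beside 49.0%) and in 1 of 6 NPC MBD3 peaks (beside 53.9%). The octamer was in 0 of 7 and 0 of 17 member peaks of the ESC MBD3 lists, beside 4.82% and 5.02% of all peaks, and the SOX string likewise in 0, beside 6.40% and 6.30%. The FOXH1 string was in 0 of those 7 and 17 peaks, beside 3.42% and 4.35% of all peaks, and in 0 of 10 GFP-ZFP296 peaks, beside 4.37%. It was in 1 of 42 peaks of the first ESC CHD4 list (beside 3.02%), 2 of 73 of the second (2.67%), 2 of 46 SIN3A peaks without spike-in (1.29%) and 2 of 28 with spike-in (0.824%). In NPCs it was in 1 of 6 MBD3 peaks (2.13%) and 2 of 40 CHD4 peaks (3.27%). In no list was it in more than 2 member peaks, so the printed windows that hold it are a minority. The telomere unit was in 2 of 10 GFP-ZFP296 peaks, beside 10.4%. A short string such as CAGAC occurs often, and the FOXH1 string of the window between the Lefty genes lies beside it.

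Among 34 other genes of the pathway, 8 had an ESC MBD3 site, beside 10.1% of all genes. These were the ligand genes Gdf3 and Inhbb, the type I receptor gene Acvr1b, the convertase gene Pcsk6, the partner gene Foxh1, and the inhibitor genes Ski, Tgif1 and Pmepa1. Tgif1, a homeodomain co-repressor related to Tgif2, had the highest counts, with 5 and 9 ESC MBD3 peaks, 16 and 28 CHD4 peaks and 5 GFP-ZFP296 peaks, but 0 NPC MBD3 and 5 NPC CHD4 peaks. Acvr1b had 2 MBD3 sites and 3 GFP-ZFP296 peaks. Foxh1 had 1 MBD3 site, 6 SIN3A sites and 0 NPC peaks.

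NPC MBD3 peaks lay near 7 of the 34 genes, beside 15.7% of all genes. They were Inhbb, Tgfb1, Furin, Smad4, Smurf1, Drap1 and Pmepa1. Furin, a proprotein convertase that processes TGF-beta family ligands, had 2, with 10 NPC CHD4 peaks against 0 and 4 in the ESC lists. Inhbb and Pmepa1 also had an ESC MBD3 site. For the other marks, CHD4 sites lay near 16 of the 34 (beside 36.8% of all genes), SIN3A sites near 26 (53.5%), GFP-ZFP296 peaks near 10 (21.9%) and NPC CHD4 peaks near 28 (57.9%). The T gene, a target of the pathway, had 1 peak in each ESC MBD3 list but no site.

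**Figure D5:**
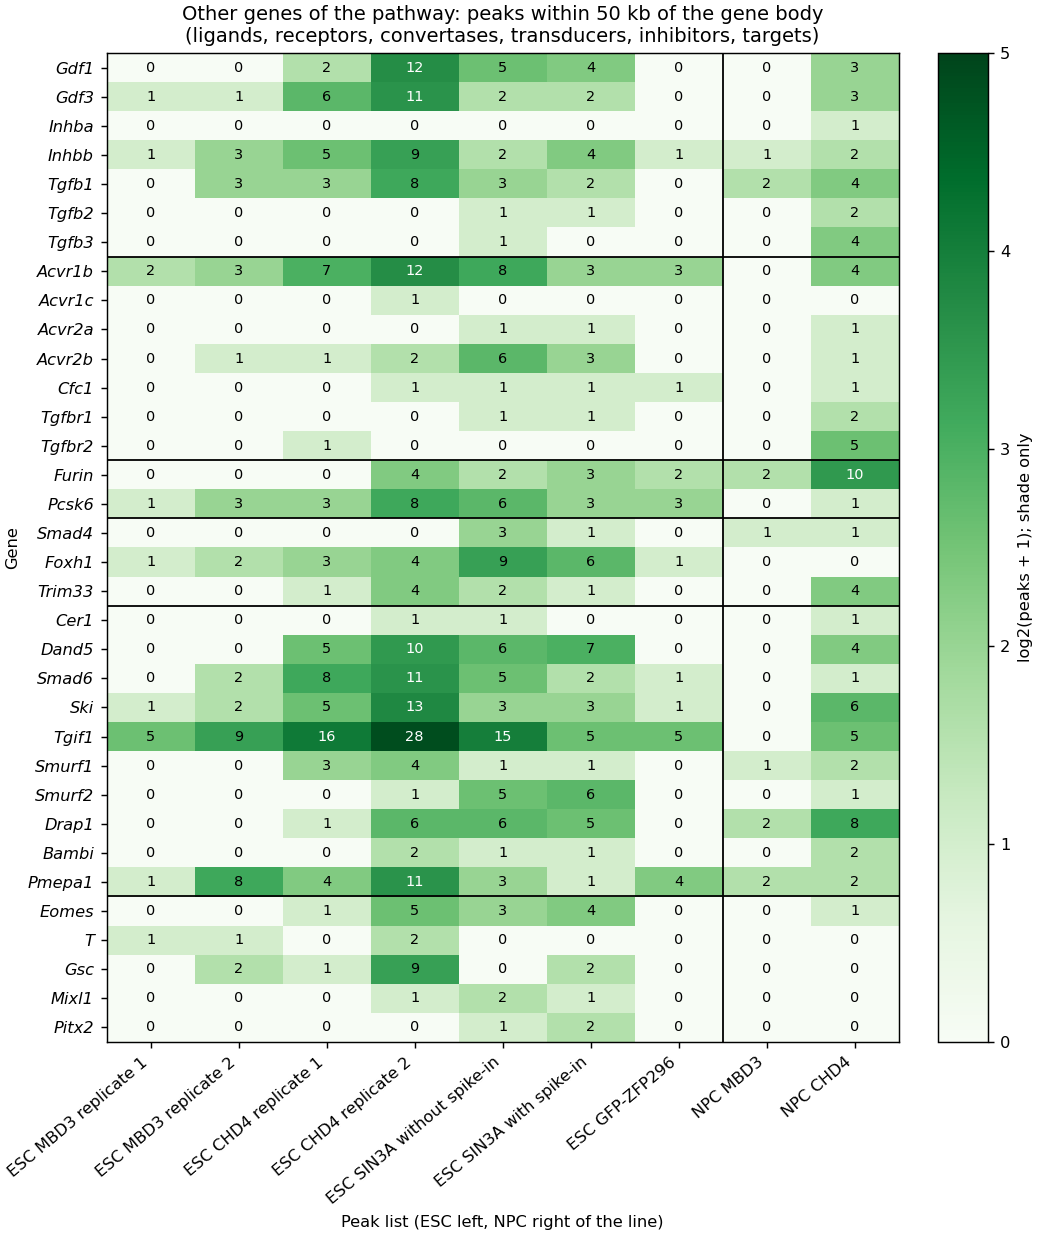
Peak counts within 50 kb of 34 further genes of the pathway, in 6 groups separated by lines, drawn as for the 9 genes. Tgif1 stands out in the ESC lists and Furin, with 10 peaks, in NPC CHD4.

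Marker genes of the 2 cell types were described by the peaks near them, which do not measure expression. All 6 ESC markers had an ESC MBD3 site and a CHD4 site, beside 10.1% and 36.8% of all genes, with between 1 CHD4 site (Klf4) and 15 (Pou5f1). They had 0 NPC MBD3 peaks, beside 15.7% of all genes with at least 1. NPC CHD4 peaks lay near 4 of the 6, beside 57.9% of all genes. There were 3 near Pou5f1, 2 each near Nanog and Klf4 and 1 near Sox2. Of the 5 NPC markers with a protein-coding model, 0 had an ESC MBD3 site, while Olig2 had 1 MBD3 peak in the first ESC list and Pax6 1 in the second. Nes alone of the 5 had an NPC MBD3 peak, beside 15.7% of all genes. Nes had 8 and Vim 6 NPC CHD4 peaks, and Pax6, Olig2 and Fabp7 had 0, beside 57.9% of all genes with at least 1. With 5 markers and no expression levels, these counts do not check the NPC label.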

How the data were processed

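ChIP-seq peaks were taken as the authors deposited them, with positions on mm9 and a −log10 p or q value per peak (which of the 2 is not stated in the sources used here). The authors mapped reads with BWA to mm9, kept unique reads, removed duplicates and called peaks with MACS2 (version 2.0, per the labels) per sample against input, at a threshold of 0.001, or 0.0001 for SIN3A without spike-in. In 7 lists the peak names say that reads were equalised, which the SIN3A names lack. Read depth is not given by the peak lists, so no interval was computed.

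Peaks were assigned by midpoint to gene bodies extended by 50 kb, with Python 3.11.15, pandas 2.3.3 and numpy 2.4.6, and bases were read with pyfaidx 0.9.0.4. Counting and overlap functions were tested on simulated intervals. No peak ended beyond the reference chromosomes. The genes and lists were chosen with earlier results of these data known. Named were all 9 genes, pathway genes with an ESC MBD3 site or an NPC MBD3 peak, for each gene and list its highest peaks and most shared regions, and, for genes with peaks in 5 or more lists, those of most similar counts. Some items that these rules select are not reported here. Alternatives changed the distance, the nearest-gene rule, the value minimum, the list length, the overlap and the lists.

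The peak nearest to the limit inside it lay 48.95 kb from Tdgf1, and the nearest outside 50.6 kb from Nodal.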

Additional observations from a re-analysis of the deposited data

How the results depend on the processing

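No paired analysis was possible because the results come from counts of peaks with no test. Leaving out 1 list of a pair, the number of the 9 genes with an ESC MBD3 site ran from 3 to 6, since without the first list Lefty1, Lefty2 and Smad3 were added. Cutting every list to the length of the shortest left 1 gene with an ESC MBD3 site (Nodal), 3 with an ESC CHD4 site, 3 with an NPC CHD4 peak and 2 with an ESC SIN3A site. Counting only peaks nearest to a member's own start left 3 genes with an NPC MBD3 peak, as both Lefty genes were lost. In the other alternatives the counts of genes stayed within 1.5 times the reported ones. With distance taken from the start, an alternative chosen after the data were seen, Smad3 had 9 NPC CHD4 peaks instead of 19, and 1 and 2 in the ESC lists. Of 81 counts per gene and list, 27 moved by more than 1.5 times at 20 kb, 17 at 100 kb, 23 under the nearest-start rule, 9 at a value of at least 6, 47 at equal list length and 3 with distance from the start. Of 54 string counts, 32 moved with 500 bp windows. With 1 NPC list per factor and no read depth, a missing peak does not show absence of binding.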

Other observations

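Genes on other chromosomes with the most similar counts over the 9 lists, by the sum of absolute differences, were Tha1 for Nodal (7 of a total of 60 peaks), Dnajc7 for Lefty1 (4 of 32), Galp for Tdgf1 (4 of 31), Wwtr1 and Lrig1 for Smad3 (5 of 32), Erf for Smad7 (7 of 65), Zfp346 and Gm17617 for Skil (2 of 21), and Rpl27-ps1, Vtn and Sebox for Tgif2 (2 of 16). Wwtr1 encodes the transcriptional coactivator TAZ. The likeness is over 9 counts, 7 of them from ESCs, and says nothing of shared control.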
